A study of Mus musculus with 5 samples.

Results

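The genes described here are 10 genes of glycolysis and of the response to low oxygen, measured in mammary epithelial cells of 4-week-old mice. Slc2a1, Hk2, Pfkl, Aldoa, Pgk1, Eno1 and Ldha carry glucose into the cell and down to lactate, and Vegfa, Bnip3 and Egln3 are induced when oxygen is short. For each gene the probe set named for it alone was taken, with the highest mean over the arrays where there were several. This gave a value for 8 of the 10 genes, among 22180 genes tested. The only probe set listed for Aldoa carries a second symbol, Aldoart1, and no probe set was listed for Eno1, so neither has a value here.

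There were 5 Affymetrix arrays of mammary epithelial cells from the inguinal glands of mice on a congenic FVB/NJ background. The knockout group (n = 2) was MMTV-Cre+/Mmp14(f/f), in which Cre under the mouse mammary tumour virus promoter acts on floxed alleles of the membrane metalloproteinase gene Mmp14. The wild-type group (n = 3) was Mmp14(f/f) littermates, which carry the same floxed alleles and no Cre. The comparison asked how loss of Mmp14 in the epithelium alters gene expression in the young gland. The labels do not say whether an array holds 1 mouse or a pool, so the errors and p-values given below describe how these 5 samples vary.

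Glycolysis turns glucose into pyruvate, and lactate dehydrogenase turns pyruvate into lactate when it is not burned in mitochondria. The transcription factor HIF-1, made of the oxygen-regulated subunit HIF1A and its partner ARNT, is degraded in the presence of oxygen after prolyl hydroxylases mark it for the ubiquitin ligase VHL. At low oxygen it persists and raises transcription of glycolytic genes, of Vegfa and of Bnip3, and of Egln3, itself one of the prolyl hydroxylases. In the mammary gland glucose also feeds the synthesis of milk lactose, and VEGF from the epithelium acts on the vessels around it.

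HIF binds the core ACGTG or GCGTG, and the promoters of these genes were read for both. Of 10 RefSeq promoter windows of the 8 genes (GRCm38.p6, 250 bases before to 50 after a start site, matched by symbol), 9 held at least 1 of these cores on either strand, and 7 held ACGTG. Over all 32851 windows of that length, 43.8% held either core and 19.6% held ACGTG, and among the 9690 windows with at least 60% G and C, 69.2% and 26.5% did. The 250 bases before the start site are shown for Pgk1 and Pfkl, which had their lowest signals on the same array, and for Egln3, whose signal separated the arrays in another way. Capitals mark the cores, written as CACGT or CACGC where they lie on the other strand. Each sequence runs 5′ to 3′ in the direction of the gene.
Pgk1 (chrX:106186850-106187099, plus strand): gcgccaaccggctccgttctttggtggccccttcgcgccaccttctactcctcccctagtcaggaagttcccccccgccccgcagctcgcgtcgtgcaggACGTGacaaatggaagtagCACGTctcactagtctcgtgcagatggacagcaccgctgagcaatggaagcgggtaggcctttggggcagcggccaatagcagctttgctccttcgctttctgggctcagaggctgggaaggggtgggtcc
Pfkl (chr10:78009808-78010057, minus strand): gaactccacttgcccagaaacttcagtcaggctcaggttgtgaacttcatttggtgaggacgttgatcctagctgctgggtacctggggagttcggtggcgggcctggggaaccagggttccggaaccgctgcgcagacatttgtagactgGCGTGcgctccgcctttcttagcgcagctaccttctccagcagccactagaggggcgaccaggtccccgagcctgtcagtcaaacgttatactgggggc
Egln3 (chr12:54203875-54204124, minus strand): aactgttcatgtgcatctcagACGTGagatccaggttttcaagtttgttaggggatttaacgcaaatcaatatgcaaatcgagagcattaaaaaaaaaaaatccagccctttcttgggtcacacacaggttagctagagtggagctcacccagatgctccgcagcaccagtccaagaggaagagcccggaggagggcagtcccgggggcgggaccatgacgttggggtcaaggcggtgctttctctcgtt
Pgk1 held ACGTG at 150 bases before the start site and again, on the other strand, at 131 before. Pfkl held a single GCGTG at 99 bases before, and Egln3 a single ACGTG at 229 before. The first Ldha window held 7 matches and the Bnip3 window 5, some of which overlap because CACGTG reads as ACGTG on both strands. The first Vegfa window held no core, and the second, further downstream, held 2 matches. A match is a run of letters and not a measured binding site.

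The deposited values are log2 signals. Across the 41345 probe sets the median signal of an array was 4.25 to 4.29. Equal values are frequent in this table: 68.8% of genes had the same signal to 6 decimals on at least 2 arrays, as had 6 of the 8 genes described here. Ties of this kind make a gene's estimated spread too small. Mmp14 itself read 7.98 and 7.28 on the knockout arrays and 8.15, 8.67 and 7.75 on the wild-type arrays, so the groups overlapped. Its difference was -0.43 log2 units within run 1 and -0.46 within run 2. Whether its probes fall within the deleted part is not stated, so this signal checks neither label. The luminal keratins Krt8 and Krt18 read 11.18 to 11.48 on all 5 arrays and Epcam, an epithelial adhesion molecule, 9.98 to 10.10, so the defining markers of the labelled cells were present. Col1a1, a fibroblast collagen gene, read 7.87 to 8.68 and Pecam1, an endothelial gene, 7.64 to 8.80. Knockout 2 stood apart on the first principal component, which held 45% of the variance, at 25.3 against -12.5 to 4.63 for the other arrays. The array numbers in the labels form 2 consecutive series, called runs here: run 1 holds knockout 1 and wild types 1 and 2, and run 2 holds knockout 2 and wild type 3. What a run stands for is not stated.

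None of the 8 genes passed the test between knockout and wild type. The count at limma's adjusted p under 0.05 was 0 of 8, beside 0.0% of all 22180 genes, and 0 of 8 had an unadjusted p under 0.05, beside 1.3% of all genes. With knockout 1 left out limma called 1757 genes (7.92%), and with knockout 2 left out 835 (3.76%), again with 0 of the 8 among them. The knockout mean was lower for 5 genes, higher for 2 and equal for 1, where 49.5% of all genes had a lower knockout mean. The median difference over the 8 was -0.04 log2 units, against 0.00 over all genes tested, and it was -0.10 without knockout 1, -0.16 without wild type 3 and -0.0065 without wild type 2. In no gene were both knockout arrays above or both below all wild-type arrays, where 2.63% of all genes were separated upwards and 2.8% downwards. Differences are knockout minus wild type, errors are limma's moderated SE, intervals are 95%, and p-values were adjusted by Benjamini-Hochberg over the 22180 genes.

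**Figure D1:**
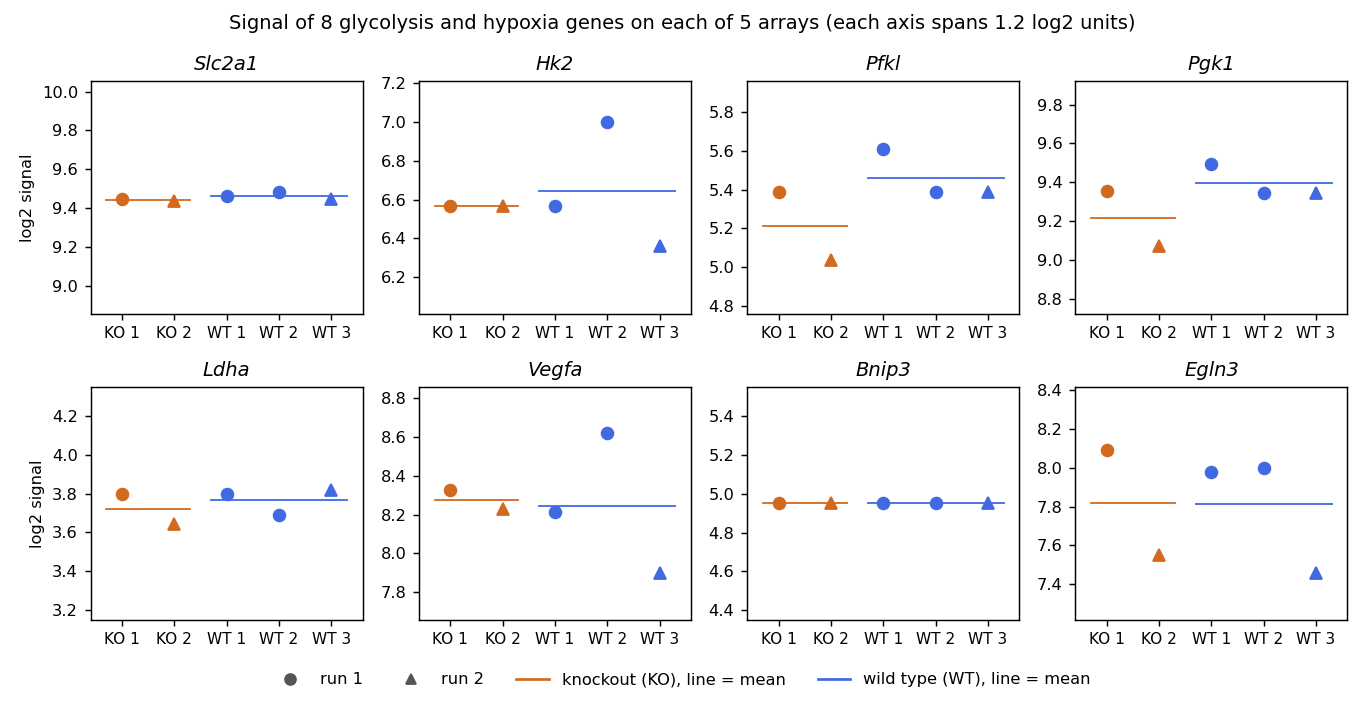
Log2 signal of each of the 8 genes on the 5 arrays, with knockout arrays (KO) in orange, wild-type arrays (WT) in blue, circles for run 1 and triangles for run 2, and a line at each group's mean. Pfkl and Pgk1 are lowest on knockout 2, Hk2 and Vegfa are highest on wild type 2 and lowest on wild type 3, Egln3 is lower on both triangles, and Bnip3 is at 4.95 on every array.

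Glucose enters the cell through Slc2a1, the transporter GLUT1. Its signal was 9.45 and 9.44 on the knockout arrays and 9.46, 9.48 and 9.45 on the wild-type arrays. All 5 values lay within 0.05 log2 units of each other, and knockout 1 equalled wild type 3. The difference was -0.02 ± 0.02 with an interval of -0.07 to 0.03 (limma adjusted p = 0.919). A second probe set for Slc2a1 read 4.97 on knockout 1 and 4.93 on each of the other 4 arrays, a difference of 0.02, so the 2 probe sets differ in sign at this small size.

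Hexokinase 2, encoded by Hk2, traps glucose as glucose 6-phosphate. Its signal was 6.57 on both knockout arrays and 6.57, 7.00 and 6.36 on the wild-type arrays. Both knockout values equalled that of wild type 1, and wild type 2 and wild type 3 lay on either side. The difference was -0.08 ± 0.22 (interval -0.70 to 0.54, limma adjusted p = 0.977), it was -0.22 within run 1 and 0.20 within run 2, and it turned to 0.10 without wild type 2.

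Pfkl, the liver-type chain of phosphofructokinase, commits sugar to glycolysis. Its signal was 5.39 on knockout 1 and 5.04 on knockout 2, against 5.61, 5.39 and 5.39 on the wild-type arrays. Knockout 1 shared its value with wild types 2 and 3, so the lower knockout mean came from knockout 2. The difference was -0.25 ± 0.15 (interval -0.66 to 0.17, limma adjusted p = 0.919), and it was -0.07 without knockout 2 and -0.42 without knockout 1. Within the runs it was -0.11 and -0.35.

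Pgk1, phosphoglycerate kinase, makes the first ATP of the pathway and had a like arrangement. Its signal was 9.36 on knockout 1 and 9.07 on knockout 2, against 9.49, 9.35 and 9.35 on the wild-type arrays. Knockout 1 lay among the wild-type arrays and knockout 2 below them. The difference was -0.18 ± 0.11 (interval -0.50 to 0.14, limma adjusted p = 0.919), and it was -0.04 without knockout 2 and -0.32 without knockout 1.

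Ldha, the lactate dehydrogenase chain that favours lactate formation, read 3.80 and 3.64 on the knockout arrays and 3.80, 3.69 and 3.82 on the wild-type arrays. The groups overlapped and the difference was -0.05 ± 0.07 (interval -0.25 to 0.16, limma adjusted p = 0.923), with the opposite sign within run 1 (0.06) and without knockout 2 (0.03). The mean of this probe set lay under the 40th percentile of gene means. No detection calls were used, so a signal this dim cannot be told from background, and its order over the arrays carries no information. Whether the probe set lies on the main Ldha transcript was not checked.

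Slc2a1, Pfkl and Pgk1 had their lowest signal on knockout 2. They make 3 of the 7 genes other than the dim Ldha (42.9%), or 4 of 8 (50%) with Ldha counted, where 22.5% of all genes were lowest on that array. For Slc2a1 the gap to the next array was 0.01 log2 units. On the same array the mean signal of 14 immediate-early genes, which respond to tissue dissociation among other stimuli, was 9.03, against 8.58 to 8.73 on the other arrays. The mean of 13 luminal epithelial genes was 8.64 there, against 8.75 to 8.89. The part of either in the lower signals of Slc2a1, Pfkl and Pgk1 was not tested. In bulk samples, fewer cells of a type and less RNA per cell cannot be told apart.

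**Figure D2:**
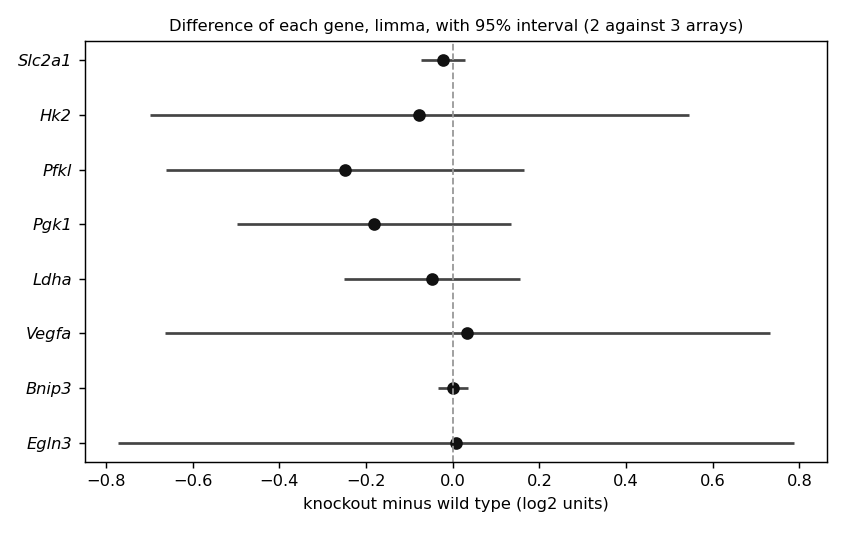
Difference of each gene, knockout minus wild type in log2 units, as points with limma's 95% interval as lines, from 2 knockout and 3 wild-type arrays. Every interval includes 0, and those of Hk2, Vegfa and Egln3 are the widest, at -0.70 to 0.54, -0.66 to 0.73 and -0.77 to 0.79.

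Among the genes induced at low oxygen, Vegfa encodes the growth factor that draws vessels towards tissue. Its signal was 8.33 and 8.23 on the knockout arrays and 8.21, 8.62 and 7.90 on the wild-type arrays. The wild-type arrays alone spanned 0.72 log2 units and enclosed both knockout values. The difference was 0.03 ± 0.24 (interval -0.66 to 0.73, limma adjusted p = 1.00), and it turned to -0.09 within run 1, -0.14 without wild type 3 and -0.02 without knockout 1, while it was 0.33 within run 2.

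Vegfa and Hk2 both had their highest signal on wild type 2 and their lowest on wild type 3. The mean of 10 fibroblast markers was also highest on wild type 2, at 8.49, and lowest on wild type 3, at 7.92. That of 9 basal epithelial markers was 7.48 and 7.07 on the same wild-type arrays. On the knockout arrays the order was not shared. From knockout 1 to knockout 2 the fibroblast mean rose from 8.17 to 8.40 and the basal mean from 7.35 to 7.45. Vegfa fell from 8.33 to 8.23 and Hk2 stayed at 6.57. The part of these cells in the Vegfa and Hk2 signals was not tested.

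Bnip3, a mitochondrial protein that triggers removal of mitochondria, had the same value of 4.95 on all 5 arrays. Its groups therefore had no spread and no difference, as was so for 4.2% of all genes. An identical value on every array carries no comparison between the genotypes and is not a measured absence of change.

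Egln3, the prolyl hydroxylase PHD3, is both a brake on HIF and one of its targets. Its signal was 8.09 and 7.55 on the knockout arrays and 7.98, 8.001 and 7.46 on the wild-type arrays. The knockout array of run 1 lay with the wild-type arrays of run 1, and the knockout array of run 2 with the wild-type array of run 2. The difference between genotypes was 0.01 ± 0.27 (interval -0.77 to 0.79, limma adjusted p = 1.00). It was 0.10 within run 1 and 0.09 within run 2, but -0.17 without wild type 3, -0.26 without knockout 1 and -0.04 with array weights.

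The difference between the runs was larger for Egln3 than that between the genotypes. Run 2 lay 0.53 log2 units below run 1 in the wild type and 0.54 below in the knockout, for a mean over the genotypes of -0.54, which was -0.50 after renewed quantile normalisation and -0.57 after median centring. The arrays within run 1 spanned 7.98 to 8.09 and those within run 2 spanned 7.46 to 7.55. Egln3 was the only one of the 8 genes with both run 2 arrays below all run 1 arrays, a separation that 9.82% of all genes showed, and none of the 8 had them above, as 8.57% of all genes had. Among the 6930 genes with 5 different values the downward separation was found in 23.6%. This arrangement was noticed in the values and was not tested.

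**Figure D3:**
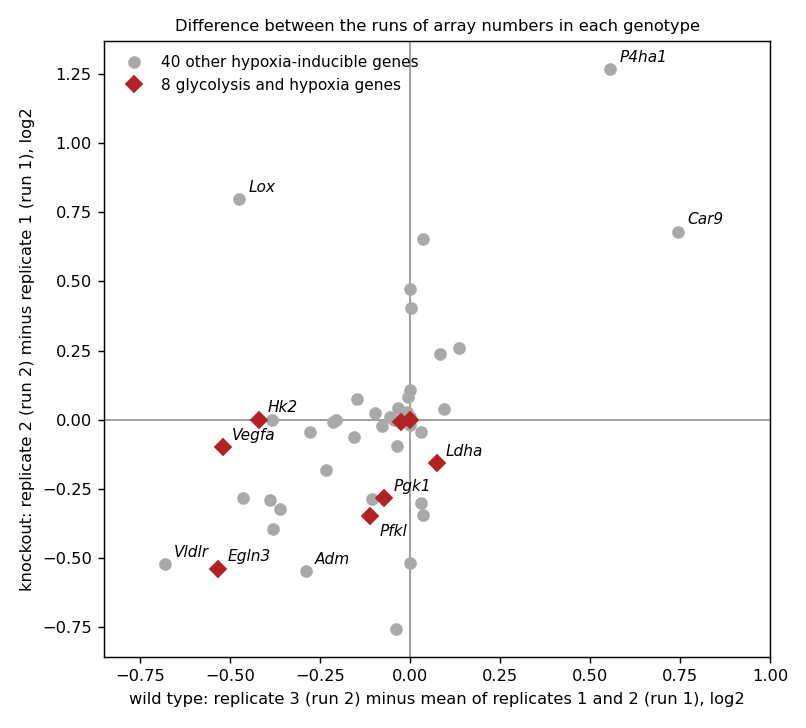
Difference between run 2 and run 1 in log2 units, within the wild type on the horizontal axis and within the knockout on the vertical axis, for the 8 genes (red diamonds; Slc2a1 and Bnip3, near 0, are not named) and 40 other hypoxia-inducible genes (grey circles). Egln3 lies at -0.53 and -0.54, and Car9 and P4ha1 lie on the opposite side.

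Other hypoxia-inducible genes did not pass the test between the genotypes either. Of 44 listed, 40 were measured, and 0 passed limma's test at an adjusted p under 0.05 or an unadjusted p under 0.05. Without knockout 1 limma called 4 (10%, beside 7.92% of all genes), which were Ak4, Nfil3, Slc2a3 and Wsb1. Without knockout 2 it called 3 (7.5%, beside 3.76%), which were Ak4, Nfil3 and Wsb1, all named after their values were seen. The calls of Ak4, Nfil3 and Wsb1 had opposite signs in these fits. Ak4 read 4.13 and 3.61 on knockout 1 and knockout 2, around 3.96 on each wild-type array. Nfil3 read 7.31 and 7.72 around 7.42, and Wsb1 8.48 and 8.95 around 8.67. Over the 40 genes the knockout mean was lower for 22 and higher for 18, with a median difference of -0.01. Both knockout arrays lay below all wild-type arrays for 4 of the 40 genes, beside 2.8% of all genes, and above them for 0, beside 2.63%. The 4 were Tfrc, Higd1a, Stc2 and, named after its values were seen, Hilpda. Tfrc, the transferrin receptor, read 6.99 and 7.07 against 7.12, 7.11 and 7.11, a difference of -0.08 ± 0.03 (limma adjusted p = 0.919). Higd1a, a mitochondrial protein, read 7.75 and 7.83 against 7.95, 8.03 and 7.84, and Stc2, a secreted glycoprotein, 6.95 and 6.67 against 7.22, 6.97 and 6.99. Kdm3a, a histone demethylase, read 8.32 and 8.30 against 8.41, 8.39 and 8.32, with overlapping groups. For Higd1a, Stc2 and Kdm3a limma's adjusted p was 0.919.

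As with Egln3, 13 of these 40 genes (32.5%) had both run 2 arrays below all run 1 arrays, beside 9.82% of all genes. Some lists of other kinds had a share as high or higher, at 40% of the 15 measured genes of pyruvate fate, 33.3% of 12 mitophagy genes and 36.4% of 11 leukocyte markers. The remaining lists had lower shares, among them 17.9% of the 28 other glycolysis genes and 11.1% of 9 VEGF genes. It was 6.25% of 16 oxygen-sensing genes and 0.0% of 10 endothelial markers. Among genes with 5 different values it was 10 of 20 hypoxia-inducible genes and 6 of 7 of pyruvate fate, beside 23.6% of all such genes. After renewed quantile normalisation, which breaks ties, the count among the 40 was 11 beside 24.2% of all genes. After median centring it was 23 beside 39.6%, so the distance to the background depends on the scaling. Vldlr, a lipoprotein receptor chosen after its values were seen, read 5.81 and 5.86 on wild type 3 and knockout 2 and 6.37 to 6.61 in run 1. In the opposite direction, Car9, a carbonic anhydrase at the cell surface, read 7.85 and 7.68 in run 2 and 7.00 to 7.12 in run 1. P4ha1, a collagen prolyl hydroxylase, read 7.09 and 7.43 in run 2 and 6.16 to 6.65 in run 1. Both were also chosen after their values were seen, so hypoxia-inducible genes did not share 1 direction between the runs.

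The oxygen-sensing machinery was measured for 16 of 17 listed genes, and 0 passed limma's test at an adjusted p under 0.05 or an unadjusted p under 0.05. The median difference was -0.02, and the groups overlapped for each of the 16. Without knockout 1 limma called 2 of the 16 (12.5%, beside 7.92% of all genes), Siah2 (adjusted p = 0.0228) and Cul2, a scaffold of the VHL ligase. Without knockout 2 it called 1 (6.25%, beside 3.76%), Hif1an, the asparagine hydroxylase of HIF, which like Cul2 was named after its values were seen. Hif1a, the oxygen-regulated HIF subunit, read 8.63 and 8.64 on the knockout arrays and 8.69, 8.67 and 8.64 on the wild-type arrays, a difference of -0.03 ± 0.02 (limma adjusted p = 0.919) that turned to 0.01 when its probe sets were averaged. Vhl read 4.99 and 5.05 against 5.03, 5.11 and 5.05. Siah2, a ubiquitin ligase that degrades prolyl hydroxylases, read 5.12 and 5.48 against 5.10, 5.13 and 5.13, and its relative Siah1a 8.76 and 8.52 against 8.89, 8.75 and 8.67. The 2 sister hydroxylases of Egln3, chosen after their values were seen, did not show its split between the runs: Egln1 read 6.65 on 4 arrays and 6.74 on wild type 2, and Egln2 lay between 7.07 and 7.11 on all 5.

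The rest of glycolysis was measured for 28 of 33 listed enzymes and transporters. None passed limma's adjusted p under 0.05 or an unadjusted p under 0.05, the knockout mean was higher for 16, lower for 11 and equal for 1, and the median difference was 0.02. Without knockout 1 limma called 5 of them (17.9%, beside 7.92% of all genes), which were Pgk2 (adjusted p = 0.0462) and, named after their values were seen, Slc16a7, Slc2a3, Slc2a8 and Tigar. Without knockout 2 it called 2 (7.14%, beside 3.76%), Slc16a7 and Tigar. The calls of Slc16a7 and Tigar had opposite signs in these fits. Slc16a7 read 4.11 and 3.87 on knockout 1 and knockout 2, around 4.03 on each wild-type array. Tigar read 3.53 and 3.93 around 3.69 to 3.70. Slc16a7, Slc2a3 and Slc2a8 had equal values on all wild-type arrays, and such ties make the estimated spread too small. Slc2a4, the insulin-responsive glucose transporter GLUT4, read 4.15 and 4.39 on the knockout arrays and 3.89, 4.14 and 4.06 on the wild-type arrays. It was the only one of the 28 whose groups did not overlap, beside 2.63% of all genes separated upwards and 2.8% downwards. The difference was 0.24 ± 0.12 (limma adjusted p = 0.919), and knockout 1 at 4.15 lay close to wild type 2 at 4.14. Aldoc, an aldolase, read 7.00 and 6.40 against 7.12, 7.00 and 7.00, so that, as for Pfkl, knockout 1 equalled wild-type arrays and knockout 2 lay below them. Hkdc1, a hexokinase relative, read 3.73 and 3.91 against 3.58, 3.73 and 3.73, and Pgk2, the testis form of phosphoglycerate kinase, 3.31 and 3.61 against 3.27, 3.31 and 3.31. The means of Hkdc1, Pgk2, Slc2a3, Slc2a8 and Tigar lay under the 40th percentile of gene means. Like that of Ldha, signals this dim cannot be told from background here, and their order and calls carry no information. Slc2a4 and Slc16a7 were dim as well. Their means, 4.13 and 4.01, lay above that percentile but under the median gene mean of 4.42.

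Only 8 of the 28 (28.6%) were lowest on knockout 2, near the 22.5% of all genes. On the same array 9 of the 28 were highest, as were 4749 of all 22180 genes. Those lowest include Tpi1, triose phosphate isomerase, at 7.70 against 8.26 to 8.44 on the other arrays. Pkm, pyruvate kinase, read 9.48 there against 9.69 to 9.83. Both were chosen after their values were seen. Gapdh, also chosen afterwards, read 10.41 on knockout 2 and 10.84 on knockout 1, with the wild-type arrays from 10.53 to 10.68 between them, so the knockout arrays lay on opposite sides of the wild type.

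The enzymes that decide the fate of pyruvate were measured for 15 of 16 listed genes, of which 0 passed limma's test at an adjusted p under 0.05 or an unadjusted p under 0.05, with a median difference of -0.04. Without knockout 1 limma called 2 of them (13.3%, beside 7.92% of all genes), Cs and Pdha1, and without knockout 2 it called 1 (6.67%, beside 3.76%), Pdha1, both named after their values were seen. Pdha1 read 7.74 and 7.26 on knockout 1 and knockout 2, around 7.65 on each wild-type array, so its calls had opposite signs. Pdhx, which anchors the pyruvate dehydrogenase complex, read 5.20 and 5.29 on the knockout arrays and 5.33, 5.41 and 5.33 on the wild-type arrays. The difference was -0.11 ± 0.04 (limma adjusted p = 0.919). It was the only one of the 15 without overlap, beside 2.8% of all genes separated downwards and 2.63% upwards. The complex's subunits Dlat and Pdhb differed by -0.10 ± 0.06 and -0.12 ± 0.08, and Pdk3, a kinase that switches the complex off, by -0.23 ± 0.13, all with overlapping groups and a limma adjusted p of 0.919. Of the 15 genes, 6 (40%) were lowest on knockout 2.

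The partners of Vegfa and Bnip3 did not pass the test either. Of 9 other VEGF ligands and receptors, all measured, 0 had a limma adjusted or unadjusted p under 0.05, the median difference was -0.04 and none was lowest on knockout 2. Kdr, the main VEGF receptor of endothelium, read 4.87 and 5.21 on the knockout arrays and 5.21, 5.37 and 5.21 on the wild-type arrays. Vegfb read 5.91 and 5.97 against 5.97, 5.97 and 6.01. Vegfd, a ligand of lymphatic vessels, differed by 0.16 ± 0.19 (limma adjusted p = 0.919) but by -0.13 within run 1, and Flt4, its receptor, by 0.02 ± 0.02 (limma adjusted p = 0.919). The mean of 10 endothelial markers was 6.22 and 6.91 on the knockout arrays, on either side of the 6.44 to 6.85 of the wild-type arrays, and its part in the Kdr signal was not tested.

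Mitophagy genes were measured for 12 of 15 listed, with 0 at a limma adjusted or unadjusted p under 0.05 and a median difference of 0.04. The knockout mean was higher for 9, lower for 2 and equal for 1. Those with the largest moderated t were the autophagosome proteins Gabarap (0.07 ± 0.04), Map1lc3b (0.11 ± 0.07) and Gabarapl1 (0.12 ± 0.08, and -0.02 within run 1), and the mitochondrial receptor Fundc1 (0.04 ± 0.03), all with overlapping groups and a limma adjusted p of 0.919. Fundc1 was called without knockout 1 (limma adjusted p = 0.0306), as 1 of the 12 (8.33%, beside 7.92% of all genes), from a fit with 1 knockout array.

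No gene in the marker lists of other cells passed limma's adjusted p under 0.05. The mean of 8 measured adipocyte markers was 5.55 and 5.71 on the knockout arrays and 5.55 to 5.56 on the wild-type arrays, that of 11 leukocyte markers 5.37 and 5.27 against 5.21 to 5.88, and that of 10 skeletal muscle markers 3.95 and 3.88 against 3.98 to 4.00. Of the erythroid markers 2 of 8 were measured, at a mean of 3.31 and 3.40 against 3.36 to 3.39. Their part in the signals of the 8 genes was not tested.

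The genes whose profile over the 5 arrays came closest to the mean profile of the 8 were Sars, a seryl-tRNA synthetase, Srsf5, a splicing factor, and Il1rap, an interleukin 1 receptor chain. The root mean square distance between centred profiles was 0.01, 0.01 and 0.02 log2 units, among genes with 5 different values. The mean profile ran from 0.12 on wild type 2 to -0.13 on knockout 2, with -0.11 on wild type 3, so both run 2 arrays were at its low end. Different genes were lowest on these arrays: Hk2, Vegfa and Egln3 on wild type 3, and Slc2a1, Pfkl, Pgk1 and Ldha on knockout 2. Of the 8, only Egln3 had both below all run 1 arrays. The likeness of Sars, Srsf5 and Il1rap to the mean profile rests on 5 arrays and is a description.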

How the data were processed

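Values were taken from the deposited table of 41345 probe sets on 5 arrays. They are log2 signals, and the submitters' processing notes name RMA and limma without versions. RMA corrects background, quantile-normalises the arrays and summarises the probes of a set, which can leave equal values between arrays. The genome build and library files were not given in the sources used here. Per the labels' protocols, lymph node-free glands were digested with collagenase, stroma was removed by centrifugation, and 10 ng of total RNA was labelled per array. The platform annotation gave 1 symbol for 23521 probe sets, several for 1814 and none for 16010; genes were named from the first kind, with older symbols in the lists looked up in a RefSeq table of GRCm38.p6.

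Knockout and wild type were compared by a linear model without covariates in limma 3.58.1 (lmFit, eBayes; R 4.3.3), with two-sided p-values adjusted by Benjamini-Hochberg over 22180 genes at a threshold of 0.05, a procedure tested on simulated data. The number of arrays limits the precision. Alternatives were renewed quantile normalisation, median centring, a filter at the 40th percentile of gene means, averaged probe sets, all probe sets, replicate and run blocks, run 1 alone, an intensity trend, array weights, robust eBayes and each array left out. The members and lists were chosen with earlier results of these data known. Named in the text are the members, per pathway list up to 4 genes with the largest moderated t, and the 3 closest profiles. Outside this rule Mmp14 is given as the targeted gene, and Krt8, Krt18, Epcam, Col1a1 and Pecam1 as markers of cell types. Any further gene is marked in the text as picked afterwards.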

Additional observations from a re-analysis of the deposited data

How the results depend on the processing

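With 2 against 3 arrays the intervals are wide: a difference of 0.5 log2 units in either direction lies inside those of Hk2, Vegfa and Egln3. A fall of 0.5 also lies inside that of Pfkl (-0.66 to 0.17), and that of Pgk1 reached -0.50. No member was called under any alternative run. Over all genes limma called 0 in every alternative that kept all 5 arrays, and 0 to 1757 with 1 array left out (1757 without knockout 1, 835 without knockout 2, 0 without any wild-type array). Such a fit takes the spread of the single remaining knockout array from the wild type. The wild-type SD was 0 for the called genes Ak4, Wsb1, Slc2a3, Slc2a8, Slc16a7, Hif1an and Fundc1, whose wild-type values were tied. Calls from these fits thus rest partly on ties. Of the 24 pathway genes named by the rule, 3 were called under an alternative, Pgk2, Siah2 and Fundc1, each without knockout 1 (limma adjusted p = 0.0462, 0.0228 and 0.0306); further list genes called with 1 knockout array, such as Cul2 and Hif1an, are named with their lists above. The median of the 8 members ran from -0.16 to -0.0065 with 1 array left out. It was -0.16 with the replicate number as a block, which here gives the same estimates as leaving out wild type 3, and 0.020 over the 2 members left when only genes with 5 different values were fitted, a restriction chosen after seeing the data. The labels do not say that replicate numbers pair the samples: deviations of same-numbered arrays correlated at 0.245 and -0.0436 across genes, and the replicate block changed no call.

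Some alternatives could not change a sign. The intensity trend, robust eBayes, the fit of all probe sets and the filter on dim genes left a member's estimate as it was. Bnip3 was equal on all arrays. The counts that follow therefore do not measure stability. Of 145 values of the 8 members under alternatives, 12 had the opposite sign to the main one, none of them called. These were Hk2 in run 2 alone (0.20) and, over leave-one-out fits, from -0.22 to 0.10; Ldha in run 1 alone (0.055) and from -0.13 to 0.031; Vegfa with the replicate block (-0.14), in run 1 alone (-0.090) and from -0.14 to 0.22; and Egln3 with the replicate block (-0.17), with array weights (-0.042) and from -0.26 to 0.28. Of 438 values of the 24 other named genes 3 did: Hif1a with probe sets averaged (0.013), and Vegfd (-0.13) and Gabarapl1 (-0.024) in run 1 alone. The 24 were chosen for a large moderated t in the main fit, which makes a change of sign less likely among them. The cause of the changes was not tested.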
